A study of Mus musculus with 16 samples.

Results

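Genes of DNA replication and of mitosis were followed through 4 subsets of dendritic cells (DCs) sorted from the spleen of mice. The set holds 48 named genes, 31 of mitosis and 17 of replication, out of 24116 in the deposited count table. They were chosen by name for their known roles, at a time when earlier results of these data were known. Each of the 48 had a row and was among the 13790 genes tested. There were 16 RNA-seq libraries, 2 for each of 4 sorted subsets and 2 genotypes. Dec205 names a receptor of the cross-presenting classical DC, pDC stands for the plasmacytoid DC, and Esamlo and Esamhi are the classical DCs with low and high surface ESAM. The genotypes are WT and CKO. The series design text describes the studied cells as deficient in Etv6, an ETS-family transcription factor, and CKO is read here as that state. The Etv6 allele, the driver of any deletion, the age of the mice and any pooling of animals are not stated in the sources used here. Whether the libraries within a group are separate mice is not stated either, and p-values therefore reflect library-to-library spread that may be technical.

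Cells copy their DNA in S phase and divide in mitosis, and the genes for these steps are switched on in turn. Replication genes are largely driven by E2F factors from late G1 onwards. Mitosis genes come later, in G2, through CCAAT boxes and the cell cycle homology region (CHR), an element to which the MuvB complex binds with DREAM or with B-Myb and FoxM1. Classical DCs of the spleen still contain a dividing fraction, whereas mature pDCs are known as largely non-dividing cells. RNA from many cells was pooled in each library, so fewer dividing cells and less of this RNA per dividing cell cannot be told apart.

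The promoters show what the 2 groups of genes do and do not share in sequence. A RefSeq table of 250 bases before to 50 after each gene start (GRCm38.p6) held 40 of the 48 genes, 26 of mitosis and 14 of replication. These patterns were searched on both strands: CHR as TTTGAA, the CCAAT box as CCAAT, the ETS element as CCGGAAGT, and E2F as any of TTTGGCGC, TTTCCCGC, TTTGCCGC and TTTCGCGC. Matches were counted even where they overlapped one another. CHR was present in 20 of 26 mitosis promoters (76.9%) and 2 of 14 replication promoters (14.3%), against 20.2% of the 27025 genes in the table and 14.9% of the 10907 of them that were tested here. An E2F word was present in 2 of 26 mitosis promoters (7.69%) and 6 of 14 replication promoters (42.9%), against 2.61% of all and 4.69% of tested genes. CCAAT was common in both, at 76.9% and 71.4% against 41.1% of all and 42.9% of tested genes. The ETS word was in 3 of 26 mitosis (11.5%) and 1 of 14 replication promoters (7.14%), against 4.31% of all and 8.75% of tested genes, so its share in the replication group lay above one background and below the other. CHR and CCAAT stood together in 65.4% of the mitosis promoters, 14.3% of the replication promoters, 7.97% of all and 6.12% of tested genes. These are matches of letters and not shown sites.

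The promoters of 7 genes are printed. Cdk1, Kif11, Top2a and Ube2c are examples, among the genes called in pDC, of one layout of CHR and CCAAT, Cdc6 and Rrm2 are the replication genes called there, and Mcm6 shows the E2F pattern of a gene that was not called in any comparison of CKO with WT. Each is the 140 bases before the start used in the RefSeq table, read 5′ to 3′ along the gene's strand, from GRCm38.p6. For Cdc6 that start lies inside the gene's full annotated span (chr11:98907709-98923942), so the printed stretch is internal to the gene. Capitals mark CHR as TTTGAA or its reverse TTCAAA, the CCAAT box in either direction, and E2F words.
Cdk1 (chr10:69352913-69353052, minus strand): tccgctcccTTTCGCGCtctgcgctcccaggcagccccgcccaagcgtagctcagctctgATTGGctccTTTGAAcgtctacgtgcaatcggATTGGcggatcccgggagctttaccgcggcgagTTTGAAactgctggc
Kif11 (chr19:37376242-37376381, plus strand): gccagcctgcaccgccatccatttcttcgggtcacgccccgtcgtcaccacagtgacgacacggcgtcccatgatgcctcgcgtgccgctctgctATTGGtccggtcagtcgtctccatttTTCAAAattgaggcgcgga
Top2a (chr11:99024190-99024329, minus strand): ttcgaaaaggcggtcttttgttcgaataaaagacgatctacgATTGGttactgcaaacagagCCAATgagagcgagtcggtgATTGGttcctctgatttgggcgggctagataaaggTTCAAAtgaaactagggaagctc
Ube2c (chr2:164769789-164769928, plus strand): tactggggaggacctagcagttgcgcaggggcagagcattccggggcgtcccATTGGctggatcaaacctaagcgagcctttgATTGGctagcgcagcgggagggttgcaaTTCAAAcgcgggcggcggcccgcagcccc
Cdc6 (chr11:98908011-98908150, plus strand): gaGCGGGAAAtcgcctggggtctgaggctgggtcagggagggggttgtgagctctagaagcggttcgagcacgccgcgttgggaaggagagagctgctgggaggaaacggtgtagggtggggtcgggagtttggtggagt
Rrm2 (chr12:24708114-24708253, plus strand): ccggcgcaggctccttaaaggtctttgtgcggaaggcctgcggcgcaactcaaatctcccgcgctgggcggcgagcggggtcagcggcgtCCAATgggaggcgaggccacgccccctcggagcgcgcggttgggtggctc
Mcm6 (chr1:128359706-128359845, minus strand): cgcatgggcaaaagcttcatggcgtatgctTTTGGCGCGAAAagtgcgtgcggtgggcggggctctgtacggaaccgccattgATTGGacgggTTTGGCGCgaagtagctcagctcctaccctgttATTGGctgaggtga
The 4 mitosis genes shown each carry a CHR within 30 bases before the start used and a CCAAT box upstream of it. By these starts they are the only 4 of the 12 called mitosis genes with a promoter in the table that do. In Ccnb2, Cenpf, Hmmr and Kif23 a CHR lies after the start, in Kif2c and Mki67 it lies further upstream, and Bub1 and Cenpe have none. The start used for Kif2c, like that for Cdc6, lies inside the gene's full annotated span. So do those for Mki67, Top2a, Cenpf, Hmmr and Kif23. For Mki67 the bases read before the start begin at chr7:135716380 (minus strand), and the span reaches 135716450. The layout given for a gene therefore depends on the start used, and other starts were not read for these genes. Of the 14 mitosis genes not called in pDC, 2 have the printed layout, Cdc20 and Prc1. Cdc6 and Rrm2 lack CHR in the printed stretch, and Mcm6 carries 3 E2F words, of which 2 overlap.

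Facts of the libraries bear on every comparison of CKO with WT. Totals ran from 14434287 to 20709265 counts. Etv6 itself fell in Dec205 CKO (log2 fold change -0.75, SE 0.10, adjusted p = 0.000996), but was at 346 and 352 CPM (counts scaled to a common library size after TMM) in pDC WT and at 363 and 322 CPM in pDC CKO, and was not called in Esamlo or Esamhi. Both CKO libraries were still lower there, at 426 and 512 (WT) and 370 and 362 (CKO) CPM in Esamlo (log2 fold change -0.36, SE 0.10). In Esamhi they were at 492 and 451 (WT) and 390 and 434 (CKO) CPM (log2 fold change -0.19, SE 0.10). These whole-gene counts include any exons that a partial deletion leaves, so outside Dec205 the genotype rests on the labels. Xist ranged from 0 to 1.44 CPM in the 8 WT libraries and from 114 to 355 CPM in the 8 CKO libraries, and Y-linked Ddx3y from 105 to 222 CPM and from 0.0528 to 1.95 CPM. Sex-linked expression and genotype therefore coincide and cannot be told apart in any subset. The defining markers fitted the subset labels: the 8 pDC markers summed to at least 13056 CPM in the pDC libraries and at most 370 CPM elsewhere, and the 8 cDC1 markers to at least 3312 CPM in Dec205 and at most 366 CPM elsewhere. Esam was at 144 and 151 CPM in Esamhi WT and 13.7 and 11.5 CPM in Esamlo WT.

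In WT cells both groups of genes were far lower in pDC than in the classical subsets, and the gap was wider for mitosis. The 31 mitosis genes summed to 80.9 ± 6.35 CPM (SD, n = 2) in pDC, 1243 ± 77.3 in Dec205, 1634 ± 101 in Esamlo and 1966 ± 14 in Esamhi. The classical sums were 15.4, 20.2 and 24.3 times that of pDC. The 17 replication genes summed to 340.2 ± 15.1 CPM in pDC, 1042 ± 25.6 in Dec205, 1396 ± 114 in Esamlo and 1347 ± 37.1 in Esamhi, or 3.06, 4.10 and 3.96 times the pDC sum. The ratio of summed mitosis to summed replication level was 0.238 ± 0.0293 in pDC WT and between 1.17 and 1.46 in the classical WT groups.

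**Figure D1:**
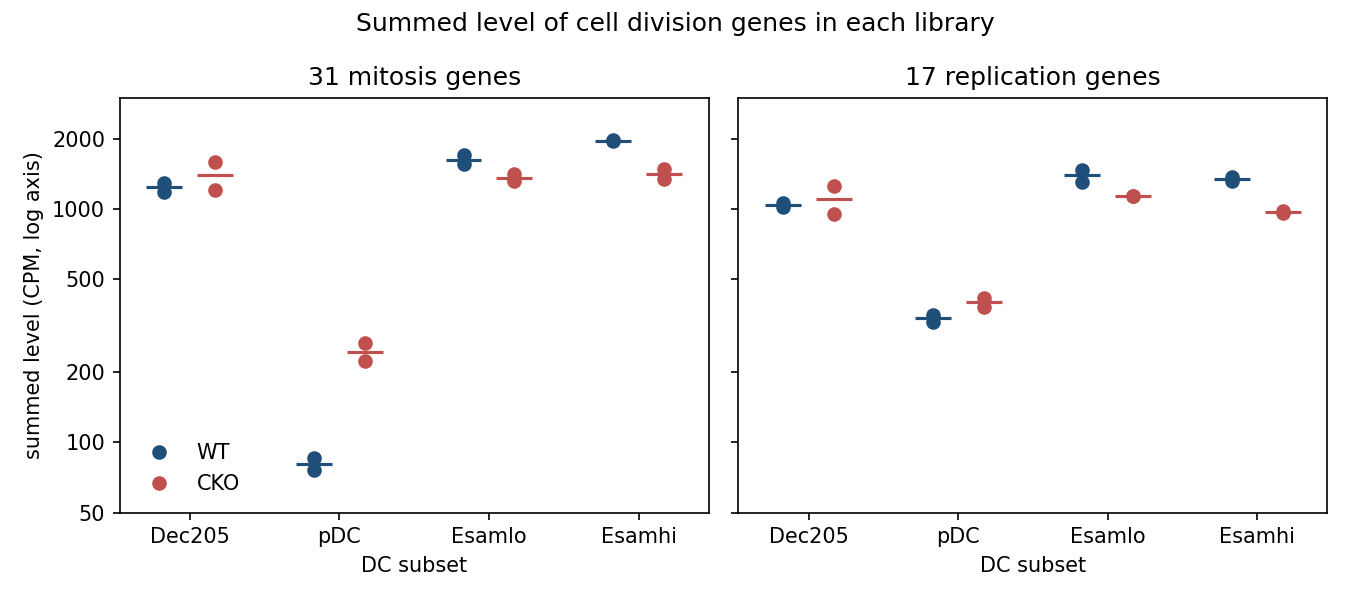
Summed level of the 31 mitosis genes (left) and the 17 replication genes (right) in CPM on a log axis, by DC subset. Points are libraries and short lines the means of 2. The pDC WT libraries are the lowest in both panels. The pDC CKO libraries lie above them in both, and further above on the log axis for mitosis. The Esamhi CKO libraries lie below the Esamhi WT libraries in both.

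All 31 mitosis and all 17 replication genes differed among the 4 WT subsets in the joint edgeR quasi-likelihood test at an adjusted p under 0.05, where 61.7% of all tested genes were called. All 48 were lower in pDC than in each classical subset, against 47.6% (Dec205), 45.7% (Esamlo) and 47.1% (Esamhi) of genes called in either direction. Both pDC WT libraries lay below all 12 classical libraries for 31 of 31 and 17 of 17 genes. Against Esamhi, the median log2 difference of pDC was -4.58 for mitosis and -2.06 for replication genes, beside -0.02 over all tested genes.

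Levels of different genes were compared per kilobase of exon. Stmn1, which encodes the microtubule-destabilising protein stathmin, had the highest mitosis level in WT, at 92.1 ± 7.28 CPM per kb in Esamhi and 6 ± 0.199 in pDC (SD, n = 2). Ccnb2, a B-type cyclin of mitotic entry, followed with 46.4 ± 6.40 CPM per kb in Esamhi and 1.64 ± 0.25 in pDC. Top2a, the topoisomerase that untangles chromosomes, was at 35.4 ± 0.531 and 0.565 ± 0.0835 CPM per kb. At the low end stood Cenpf, Cenpe and Kif2c. Among replication genes Pcna, the sliding clamp of DNA polymerases, was highest, with 83.1 ± 5.68 CPM per kb in Esamhi and 31.1 ± 3.62 in pDC. Mcm6, a subunit of the replicative helicase, was at 40.7 ± 0.229 and 14.9 ± 1.40 CPM per kb, and Rrm2, the regulated subunit of ribonucleotide reductase, at 56.5 ± 1.32 and 1.33 ± 0.400. Ccne2, Gins2 and Cdc6 were lowest.

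**Figure D2:**
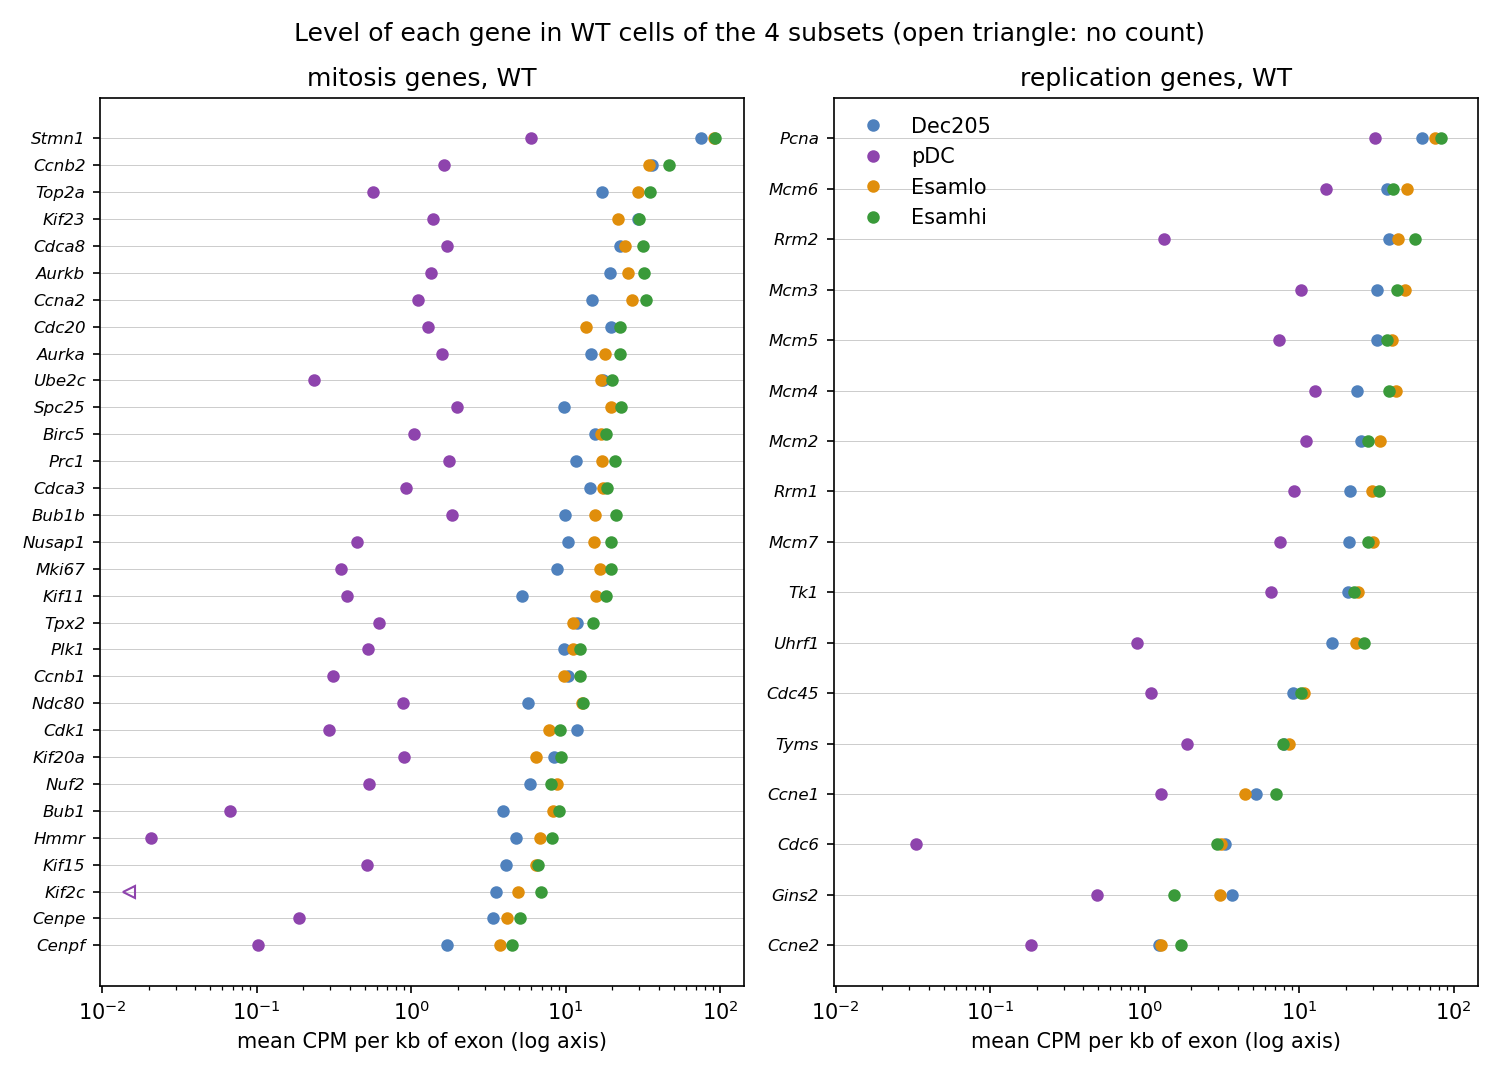
Mean level of each gene in the 2 WT libraries of each subset, in CPM per kilobase of exon on a log axis, for mitosis genes (left) and replication genes (right). The pDC point is the leftmost in every line; the open triangle marks Kif2c, with no count in pDC WT, and the pDC points of most Mcm genes and Pcna sit much closer to the classical points than those of mitosis genes.

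The distance between pDC and the classical cells varied widely from gene to gene. In mitosis, the Esamhi mean per kb was 395 times the pDC mean for Hmmr, a spindle and hyaluronan-binding protein, and 135 times for Bub1, a checkpoint kinase. Hmmr rests on 3 counts in all in pDC WT. Kif2c, a microtubule-depolymerising kinesin, had no count in either pDC WT library and was at least 283-fold higher in Esamhi WT, taking a floor of 3 counts over the pDC group. The smallest mitosis gap was that of Kif20a, at 10.5-fold between the highest and the lowest subset. In replication, Cdc6, which loads the helicase onto origins, had the widest gap, at 99.6-fold between Dec205 and pDC with 6 counts in all in pDC WT. Rrm2 (42.6-fold) and Uhrf1, which guides maintenance of DNA methylation at forks (29.6-fold), followed. Pcna, Mcm2 and Mcm6 differed by 2.67-fold, 3.02-fold and 3.33-fold between their highest and lowest subsets. Most of the Mcm helicase genes thus kept a clear level in pDC WT, with Mcm6 at 69.7 and 61.1 and Mcm4 at 48 and 43 CPM.

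Among the classical subsets the order was less marked. Esamhi had the highest mean for 29 of 31 mitosis genes. Cdk1, at 52.4 and 52.8 CPM in Dec205 WT and 39.7 and 42.5 in Esamhi WT, was highest in Dec205, and Nuf2 in Esamlo. The replication genes were highest in Esamlo (9 of 17), Esamhi (6) or Dec205 (2). No member was called between Esamlo and Esamhi WT (0 of 48 by edgeR, 2 at an unadjusted p under 0.05, 5.81% of all tested genes called). Esamhi had the higher estimate for 30 of 31 mitosis genes, with a median log2 difference of Esamlo to Esamhi of -0.27, and for 6 of 17 replication genes, with a median of 0.10. Both Esamhi WT libraries lay above both Esamlo WT libraries for 23 mitosis and 3 replication genes (27.1% of all tested genes) and below them for 1 and 9 (26.8%). The mitosis sums did not overlap either, at 1705 and 1563 CPM in Esamlo and 1956 and 1976 CPM in Esamhi.

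Dec205 WT stood lower than Esamhi WT for 10 of 31 mitosis and 4 of 17 replication genes and higher for none. Both are smaller shares than the 37.4% of all tested genes called in either direction. The genes were Kif11, Cenpf, Spc25, Ndc80, Ccna2, Mki67, Bub1b, Top2a, Prc1 and Cenpe of mitosis, and Mcm4, Rrm1, Mcm3 and Pcna of replication. Kif11, the bipolar kinesin that separates spindle poles, had the largest of these gaps, with 22.1 and 28.3 CPM in Dec205 and 85.9 and 88.9 CPM in Esamhi. It was 3.47-fold lower in Dec205 (log2 difference -1.79, SE 0.23, edgeR adjusted p = 5.38e-05). Against Esamlo, 10 members were lower in Dec205 and 1, Kif23, was higher, a smaller share than the 34.2% of all tested genes called in either direction.

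The clearest change with genotype lay in pDC. Of the 31 mitosis genes 15 rose in the CKO libraries and none fell (edgeR quasi-likelihood test, adjusted p under 0.05), where 1.47% of all tested genes were called higher, 0.377% lower and 1.85% in either direction. Of the 17 replication genes 2 rose, Cdc6 and Rrm2, and none fell. The median log2 fold change was 1.55 over the mitosis genes and 0.24 over the replication genes, beside 0.01 over all tested genes. All 31 mitosis estimates were positive, from 0.28 to 7.91, and 14 of the 17 replication estimates were. The Kif2c estimate has a WT group at 0, and the mitosis median is 1.55 also with that gene set to its bound. Both CKO libraries lay above both WT libraries for 27 of 31 mitosis genes and 6 of 17 replication genes, against 20.6% of all tested genes. The mitosis sum went from 76.4 and 85.4 CPM in WT to 268 and 223 CPM in CKO, a 3.03-fold difference of means, and the replication sum from 351 and 329.5 to 417 and 382 CPM, or 1.17-fold.

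The rise left the pDC CKO libraries far below the classical cells. Both were under all 12 classical libraries for 31 of 31 mitosis and 17 of 17 replication genes. The summed mitosis level of Dec205 WT was still 5.07 times, and that of Esamhi WT 8.01 times, the mean of pDC CKO. The ratio of summed mitosis to summed replication level was 0.218 and 0.259 in the pDC WT libraries and 0.642 and 0.584 in the pDC CKO libraries. The classical ratios lay at 1.12 or above in every library.

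**Figure D3:**
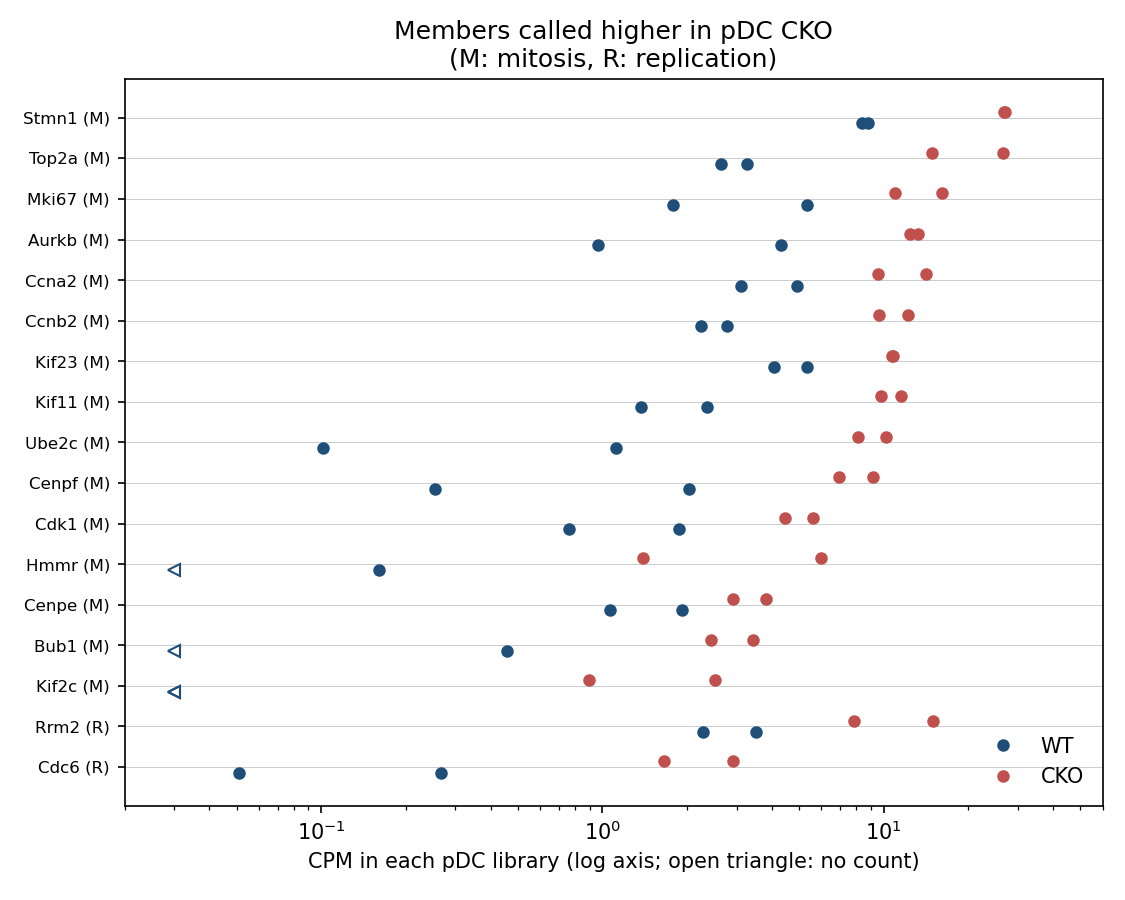
Level in CPM (log axis) of the 17 genes called higher in pDC CKO, in the 2 WT and 2 CKO pDC libraries. In every line both CKO points lie to the right of both WT points; open triangles mark libraries with no count.

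Of the 9 kinases, cyclins and exit genes, 4 rose. Cdk1 encodes the kinase that drives entry into mitosis. In pDC it was at 1.87 and 0.762 CPM (WT) and at 5.6 and 4.45 CPM (CKO), a log2 fold change of 1.94 (SE 0.30, adjusted p = 0.00388). Its classical libraries were at 52.4 and 52.8 (WT) and 52.9 and 50.5 (CKO) CPM in Dec205, 38 and 32.1 (WT) and 30.2 and 27.7 (CKO) in Esamlo and 39.7 and 42.5 (WT) and 33.2 and 28.1 (CKO) in Esamhi. Ccna2, cyclin A2 of S phase and G2, was at 3.1 and 4.93 CPM (WT) and at 9.51 and 14.1 CPM (CKO) in pDC, and rose by 1.55 (SE 0.29, adjusted p = 0.0137) on the log2 scale. In Dec205 it was at 44.6 and 62.5 (WT) and 98.4 and 64.8 (CKO), in Esamlo at 95.9 and 98.1 (WT) and 82 and 70.8 (CKO) and in Esamhi at 129 and 110.1 (WT) and 77.6 and 73.9 (CKO) CPM, higher in the CKO libraries of the first and lower in those of the other two. Cyclin B2 is a partner of the Cdk1 kinase. Its gene Ccnb2 was at 2.78 and 2.24 CPM (WT) and at 12.2 and 9.64 CPM (CKO) in pDC, with a log2 fold change of 2.12 (SE 0.29, adjusted p = 0.00165). Elsewhere Ccnb2 was at 40.3 and 71.1 (WT) and 71.4 and 55.1 (CKO) in Dec205, 57.7 and 48.3 (WT) and 47.5 and 44.3 (CKO) in Esamlo and 64.1 and 77.9 (WT) and 48.5 and 45.2 (CKO) CPM in Esamhi. The anaphase-promoting complex uses the ubiquitin-conjugating enzyme Ube2c to end mitosis. Counts of Ube2c were 21 and 2 in pDC WT and 193 and 151 in pDC CKO, or 1.12 and 0.102 (WT) and 10.2 and 8.09 (CKO) CPM, a log2 fold change of 3.91 (SE 0.47, adjusted p = 0.000826). It lay at 42.8 and 47.4 (WT) and 66.8 and 47.9 (CKO) in Dec205, 45.3 and 42.8 (WT) and 30.2 and 28.9 (CKO) in Esamlo and 50.1 and 53.1 (WT) and 40.8 and 31.3 (CKO) CPM in Esamhi. The exons of Ube2c and Ccna2 overlap another gene over 22.8% and 10.4% of their length, and the kit does not mark strand, so some of these reads could belong to Tnnc2 and Exosc9.

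Of the 10 genes of kinetochore, checkpoint and centromere, 4 rose. Aurkb is the kinase of the chromosomal passenger complex, which corrects faulty attachments. It was at 4.33 and 0.965 CPM (WT) and at 12.4 and 13.3 CPM (CKO) in pDC, and the pairs did not overlap although the WT libraries differed more than 4-fold (log2 fold change 2.29, SE 0.51, adjusted p = 0.0396). In the classical cells Aurkb was at 51.2 and 25 (WT) and 71.4 and 39.6 (CKO) in Dec205, 56.3 and 43.3 (WT) and 45.9 and 43.8 (CKO) in Esamlo and 66 and 59.6 (WT) and 36.6 and 34.4 (CKO) CPM in Esamhi. Bub1, the checkpoint kinase, had 0 and 9 counts in pDC WT and 46 and 64 in pDC CKO, or 0 and 0.457 (WT) and 2.43 and 3.43 (CKO) CPM, with a log2 fold change of 3.61 (SE 0.71, adjusted p = 0.0197). Its other libraries were at 17.4 and 9.47 (WT) and 24 and 12.1 (CKO) in Dec205, 26.5 and 30.2 (WT) and 27.3 and 19.8 (CKO) in Esamlo and 32.9 and 28.6 (WT) and 29.6 and 26.9 (CKO) CPM in Esamhi, with the WT and CKO pairs overlapping in all of them. Cenpe is a kinesin that carries chromosomes to the spindle equator. The pDC libraries held 1.92 and 1.07 (WT) and 2.91 and 3.8 (CKO) CPM of it, a small but called step of 1.17 (SE 0.26, adjusted p = 0.0423). Dec205 held 26.1 and 27.5 (WT) and 21.8 and 20.1 (CKO), Esamlo 34.3 and 31.7 (WT) and 25.7 and 25.4 (CKO) and Esamhi 39.5 and 40.2 (WT) and 32.8 and 26.9 (CKO) CPM, with CKO below WT in all 3. Cenpf, a large outer kinetochore protein, was at 2.03 and 0.254 CPM (WT) and at 6.92 and 9.16 CPM (CKO) in pDC (log2 fold change 2.82, SE 0.50, adjusted p = 0.011). The corresponding levels of Cenpf were 17.8 and 20.4 (WT) and 25.6 and 17.5 (CKO) in Dec205, 37.4 and 46.7 (WT) and 26.3 and 30.7 (CKO) in Esamlo and 47.5 and 51.9 (WT) and 38.3 and 33.5 (CKO) CPM in Esamhi.

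Of the 10 spindle motors and microtubule proteins, 5 rose. Stmn1 had the smallest SE of the genes called in pDC. It was at 8.39 and 8.79 CPM (WT) and at 27 and 26.7 CPM (CKO) in pDC, a 3.13-fold rise with a log2 fold change of 1.64 (SE 0.13, adjusted p = 2.07e-05). In the other subsets Stmn1 was at 108 and 108 (WT) and 134 and 119 (CKO) in Dec205, 138 and 124 (WT) and 94.9 and 104 (CKO) in Esamlo and 124 and 139 (WT) and 103 and 87.9 (CKO) CPM in Esamhi. Kif11 was at 2.35 and 1.37 CPM (WT) and at 9.78 and 11.5 CPM (CKO) in pDC (log2 fold change 2.52, SE 0.28, adjusted p = 0.000522). It lay at 22.1 and 28.3 (WT) and 46.4 and 29 (CKO) in Dec205, 76.1 and 75.9 (WT) and 66.7 and 59 (CKO) in Esamlo and 85.9 and 88.9 (WT) and 53.1 and 61 (CKO) CPM in Esamhi, so that CKO was above WT in Dec205 and below it in both Esam subsets. Kif23 is a kinesin of the central spindle that is needed for the final cut between daughter cells. Its pDC levels were 4.06 and 5.34 (WT) and 10.7 and 10.8 (CKO) CPM, a log2 fold change of 1.19 (SE 0.16, adjusted p = 0.00159). Dec205 had 97.8 and 101 (WT) and 68 and 85.7 (CKO), Esamlo 77.8 and 71.2 (WT) and 83.3 and 86.3 (CKO) and Esamhi 97.4 and 105 (WT) and 92 and 100.2 (CKO) CPM of Kif23. Kif2c and Hmmr were the scarcest of the called genes in pDC WT. Kif2c had no count in pDC WT and 17 and 47 counts in pDC CKO, at 0.898 and 2.52 CPM, so it was at least 21.8-fold higher (floor of 3 counts over the WT group, adjusted p = 0.00159). Its levels were 8.5 and 14.2 (WT) and 12.7 and 13.2 (CKO) in Dec205, 16.9 and 14.3 (WT) and 18.2 and 18.8 (CKO) in Esamlo and 21.8 and 22.4 (WT) and 17.9 and 15.8 (CKO) CPM in Esamhi. Hmmr had 3 and 0 counts in pDC WT and 113 and 26 in pDC CKO, a ratio of 47.3 with a counting interval of 15.9 to 232 (95%, exact, adjusted p = 0.011). In CPM this was 0.16 and 0 (WT) and 5.97 and 1.39 (CKO), beside 26.9 and 10.1 (WT) and 24.4 and 21.1 (CKO) in Dec205, 28 and 25.4 (WT) and 21.1 and 22.7 (CKO) in Esamlo and 30.6 and 32.7 (WT) and 29.5 and 23.4 (CKO) in Esamhi.

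Both genes of chromosome structure rose. Top2a went from 3.26 and 2.64 CPM in pDC WT to 26.5 and 14.9 CPM in pDC CKO, a 7.02-fold rise (log2 fold change 2.81, SE 0.29, adjusted p = 0.000287). The classical libraries held 73.2 and 106 (WT) and 104 and 81.2 (CKO) in Dec205, 161 and 146 (WT) and 141 and 121 (CKO) in Esamlo and 183 and 187 (WT) and 129 and 141 (CKO) CPM in Esamhi. Mki67 encodes Ki-67, the coat protein of mitotic chromosomes that is widely used as a marker of cycling cells. It was at 5.34 and 1.78 CPM (WT) and at 16.2 and 11 CPM (CKO) in pDC (log2 fold change 1.94, SE 0.37, adjusted p = 0.0171), and at 90.5 and 87.7 (WT) and 91.3 and 57.4 (CKO) in Dec205, 170.1 and 167 (WT) and 144 and 128 (CKO) in Esamlo and 211 and 182 (WT) and 159 and 128 (CKO) CPM in Esamhi. The 16 mitosis genes that were not called in pDC had estimates from 0.28 to 2.34 and adjusted p-values from 0.0741 upwards.

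In replication, 1 of the 9 genes of the helicase and its loading rose in pDC, Cdc6. Cdc6 had 5 and 1 counts in pDC WT and 55 and 31 in pDC CKO, or 0.267 and 0.0508 (WT) and 2.91 and 1.66 (CKO) CPM (log2 fold change 3.81, SE 0.64, adjusted p = 0.00726). It was at 21.9 and 9.74 (WT) and 15.8 and 9.73 (CKO) in Dec205, 14.3 and 15.4 (WT) and 11.5 and 11.2 (CKO) in Esamlo and 14 and 14.1 (WT) and 9.83 and 9.69 (CKO) CPM in Esamhi. Of the 4 genes of deoxynucleotide synthesis, Rrm2 rose, from 3.53 and 2.29 to 15 and 7.82 CPM (log2 fold change 1.98, SE 0.32, adjusted p = 0.00591). Its classical levels were 87.8 and 78.8 (WT) and 142 and 90.1 (CKO) in Dec205, 102 and 88.2 (WT) and 77.1 and 79.3 (CKO) in Esamlo and 122 and 126 (WT) and 91.4 and 77.9 (CKO) CPM in Esamhi. Mcm3, one of the 6 helicase subunits, was at 27.1 and 35 (WT) and 33.5 and 30.8 (CKO) CPM in pDC (log2 fold change 0.05, SE 0.14, adjusted p = 1). Mcm6 was at 69.7 and 61.1 (WT) and 86.1 and 66.2 (CKO) CPM (log2 fold change 0.22, SE 0.17, adjusted p = 0.767), and Pcna at 51.1 and 43.3 (WT) and 45 and 59.4 (CKO) CPM (log2 fold change 0.14, SE 0.14, adjusted p = 0.86). The 15 replication genes that were not called had estimates from -1.08, for Ccne1, to 0.92, for Cdc45.

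How firmly these pDC calls stand differs by gene. Ccnb2, Cdk1, Kif11, Kif23, Kif2c, Stmn1, Top2a and Ube2c kept their call when any 1 of the 4 pDC libraries was left out, and the other 9 lost it at least once, Cdc6 and Rrm2 without WT replicate 2. A fit of the 4 pDC libraries alone, which has only 2 residual degrees of freedom, called 2 of the 31 mitosis genes, Stmn1 and Top2a, and no replication gene, with the mitosis median still at 1.55. Markers of other cells were measured in the same libraries. In pDC WT and then CKO the 10 B cell markers summed to 402 and 357 against 476 and 397 CPM, the 8 T cell markers to 31.7 and 24.3 against 41.5 and 40.2, the 8 cDC1 markers to 366 and 323 against 304 and 296, and the 6 cDC2 markers to 1195 and 1077 against 1233 and 1198. The cDC2 list moved in both directions. Itgam had 75 and 102 counts in WT and 589 and 474 in CKO, and Sirpa 8726 and 8635 against 11923 and 11343. Cd4 had 11085 and 9153 against 7523 and 7237 counts. The 8 erythroid markers in the table summed to 61.2 and 64.5 against 70.0 and 71.3 CPM, the 7 plasma cell markers to 3121 and 3289 against 3483 and 2518, and the 6 stem and progenitor markers to 534 and 527 against 637 and 577. The 4 Esamhi markers summed to 598 and 473 against 406 and 392 CPM, with Esam and Clec4a4 of that list at 0 in all 4 libraries. The 5 Esamlo markers summed to 884 and 925 against 741 and 788 CPM. The 9 macrophage markers summed to 24.4 and 29.5 against 22.8 and 14.7, the 7 NK cell markers to 14.1 and 9.91 against 7.66 and 3.11, and the 10 granulocyte markers to 9.51 and 13.4 against 14.7 and 13.8 CPM. The 8 pDC markers themselves summed to 13056 and 13191 against 14227 and 15519 CPM. The part of any of these marker differences in the mitosis result was not tested.

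**Figure D4:**
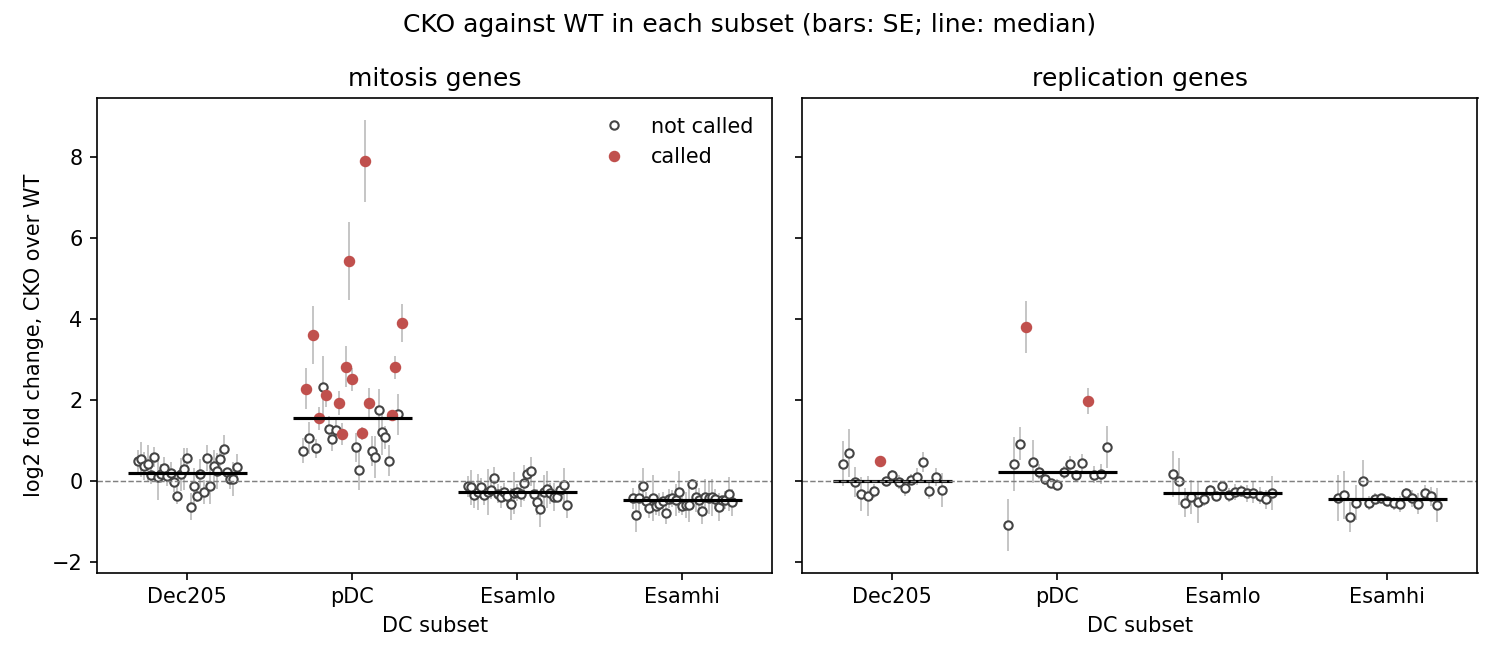
Log2 fold change of each gene, CKO over WT, with its SE (grey bars), in the 4 subsets, for mitosis genes (left) and replication genes (right); the black line is the median. Filled points are called; pDC mitosis genes spread upwards from 0.28 to 7.91, while in Esamlo 28 of 31 mitosis and 16 of 17 replication genes, and in Esamhi 31 and 16, lie below 0, down to -0.87.

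In Dec205, the only subset in which Etv6 was called lower, cell division genes gave almost no call. None of the 31 mitosis genes and 1 of the 17 replication genes was called (4 and 1 at an unadjusted p under 0.05, DESeq2 0 and 1), where 6.78% of all tested genes were. The called gene was Mcm3, at 99.4 and 92.7 CPM (WT) and at 151 and 121 CPM (CKO), a log2 fold change of 0.50 (SE 0.14, adjusted p = 0.0496). In the other classical subsets Mcm3 was at 158 and 137 (WT) and 125 and 128 (CKO) in Esamlo and 129 and 133 (WT) and 100.3 and 93.8 (CKO) CPM in Esamhi. That call was lost in 3 of the 4 fits that left out a Dec205 library (each except the one without CKO replicate 2) and in a fit of the 4 Dec205 libraries alone (adjusted p = 0.25). With the replicate number as a block the adjusted p was 0.0552. The mitosis median was 0.22, with 24 of 31 estimates positive, and the replication median was -0.000163, with 8 of 17 positive and a sign that changes with the scaling. The 2 Dec205 CKO libraries stood apart, at 1600 and 1209 CPM of summed mitosis genes against 1188 and 1298 CPM in WT. Without CKO replicate 1 the mitosis median was -0.02. Several marker lists moved with the genotype in the same libraries. The B cell markers summed to 197 and 169 (WT) and 692 and 377 (CKO) CPM, the T cell markers to 27 and 19.7 (WT) and 81.4 and 40.1 (CKO), the NK cell markers to 79.3 and 98.3 (WT) and 164 and 159 (CKO) with Ncr1 at 0 in all 4, and the plasma cell markers to 619 and 509 (WT) and 781 and 705 (CKO) CPM. Most of the NK cell sum was Klrk1, with 969 and 1262 (WT) and 3027 and 2395 (CKO) counts. Nkg7 of the same list went the other way, with 73 and 121 (WT) and 27 and 24 (CKO) counts. The pDC markers stood at 207 and 208 (WT) and 369.6 and 259.9 (CKO) CPM and the 5 Esamlo markers at 1093 and 950.2 (WT) and 1156 and 1755 (CKO) CPM. Lower in both CKO libraries were the macrophage markers, at 228 and 247 (WT) and 124 and 155 (CKO) CPM, and the progenitor markers, at 1078 and 1208 (WT) and 881 and 1043 (CKO) CPM. The sums of the cDC1, cDC2, Esamhi, erythroid and granulocyte lists overlapped between genotypes. Within the cDC1 list genes moved in both directions. Cd8a had 10295 and 10334 (WT) and 1350 and 1090 (CKO) counts. Itgae had 2708 and 3836 (WT) and 10305 and 11085 (CKO), and Xcr1 16814 and 18158 (WT) and 30175 and 27550 (CKO). The part of these markers in the mitosis values was not tested.

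In Esamhi nearly every gene had a negative estimate in CKO, and none passed the test. The mitosis genes summed to 1956 and 1976 CPM in WT and 1487 and 1352 CPM in CKO, or 72.2% of the WT mean, and the replication genes to 1321 and 1373 against 987 and 959.5 CPM, or 72.3%. No member was called in either direction (7 mitosis and 7 replication genes at an unadjusted p under 0.05), where 0.877% of all tested genes were. All 31 mitosis and 16 of 17 replication estimates were negative, with medians of -0.46 and -0.43 beside 0 over all tested genes. Both CKO libraries lay below both WT libraries for 29 of 31 and 15 of 17 genes, against 21.8% of all tested genes. Stmn1 came nearest to a call in mitosis (log2 fold change -0.47, SE 0.11, adjusted p = 0.0967). Among the replication genes Mcm5, a helicase subunit, went from 129 and 128 to 97.4 and 84.9 CPM (log2 fold change -0.49, SE 0.12, adjusted p = 0.0967) and Mcm4 from 135 and 137 to 104 and 101 CPM (log2 fold change -0.41, SE 0.10, adjusted p = 0.104). The number of calls depends on the fit. A fit of the 4 Esamhi libraries alone, whose spread is not pooled with that of the other subsets, called 12 mitosis and 9 replication genes lower, with 578 of 12431 tested genes called, and DESeq2 called 1 and 2 lower. Markers that part the 2 Esam subsets moved in the same libraries: the 4 Esamhi markers summed to 1258 and 1238 (WT) and 888 and 929 (CKO) CPM and the 5 Esamlo markers to 592 and 568 (WT) and 1232 and 1128 (CKO) CPM. The granulocyte markers were at 7.94 and 11.9 (WT) and 45.8 and 47 (CKO) CPM, the B cell markers at 168 and 188 (WT) and 286 and 217 (CKO), the erythroid markers at 17.9 and 29.5 (WT) and 52.2 and 36.5 (CKO), the NK cell markers at 16.5 and 14.6 (WT) and 20.4 and 19.1 (CKO) and the pDC markers at 124 and 127 (WT) and 151 and 135 (CKO) CPM. The cDC1 markers, at 181 and 194 (WT) and 150.4 and 154 (CKO) CPM, and the cDC2 markers, at 3284 and 3012 (WT) and 2880.2 and 2936 (CKO) CPM, were lower in both CKO libraries, and the T cell, plasma cell, macrophage and progenitor lists overlapped between genotypes. Their part in the mitosis and replication values was not tested.

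In Esamlo too most estimates were negative and none passed the test. The mitosis sum was 1705 and 1563 CPM in WT and 1417 and 1317 CPM in CKO (83.7% of the WT mean), and the replication sum 1477 and 1315 against 1142 and 1139 CPM (81.7%). None of the 48 genes was called (1 mitosis and 2 replication genes at an unadjusted p under 0.05), where 0.551% of all tested genes were, and DESeq2 called no mitosis gene and 1 replication gene, lower. Estimates were negative for 28 of 31 mitosis and 16 of 17 replication genes, with medians of -0.27 and -0.30. Both CKO libraries lay below both WT libraries for 21 and 14 genes, against 21.1% of all tested genes. Mcm4 went from 152 and 151 to 128 and 108 CPM (log2 fold change -0.36, SE 0.10, adjusted p = 0.224) and Stmn1 from 138 and 124 to 94.9 and 104 CPM (log2 fold change -0.39, SE 0.11, adjusted p = 0.251). In the same libraries the granulocyte markers summed to 24.3 and 27.2 (WT) and 50.5 and 49.3 (CKO) CPM, the B cell markers to 222 and 308 (WT) and 813 and 335 (CKO) CPM and the Esamhi markers to 358 and 346 (WT) and 268 and 286 (CKO) CPM. The other marker lists overlapped between genotypes, and the part of the 3 that did not was not tested.

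Whether the CKO change differed between subsets was tested itself. The joint test over the 4 subsets called 11 of 31 mitosis and 2 of 17 replication genes, where 2.44% of all tested genes were called. They were Stmn1, Top2a, Kif11, Ube2c, Kif23, Ccnb2, Kif2c, Cdk1, Ccna2, Cenpf and Mki67 of mitosis, and Rrm2 and Cdc6 of replication. Pair by pair, the change in pDC was above that in Esamhi for 15 mitosis and 2 replication genes (1.18% of all tested genes called), above that in Esamlo for 10 and 2 (0.682%), and above that in Dec205 for 11 and 1 (2.41%). No member had a called difference in the other direction in these 3 contrasts. The 3 contrasts share the pDC libraries.

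Other genes of the same pathways, from lists that hold no member, were read in the same way. Of 51 further mitosis genes 8 rose in pDC CKO and none fell, against 1.47% of all tested genes called higher there, with a median log2 fold change of 0.87 and 44 positive. The 5 with the largest estimates were Ttk, Kif22, Ckap2, Ncaph and Sgol1. Kif22, a chromosome-arm kinesin, was at 0.801 and 0.152 CPM (WT) and at 9.57 and 5.09 CPM (CKO) in pDC (log2 fold change 3.94, SE 0.45, adjusted p = 0.00057). Ncaph, a subunit of condensin I, was at 0.0534 and 0.813 (WT) and 4.7 and 3.54 (CKO) CPM (log2 fold change 3.20, SE 0.51, adjusted p = 0.00518), and Sgol1, which guards centromere cohesion, at 0.214 and 0.406 (WT) and 2.48 and 2.63 (CKO) CPM (log2 fold change 3.01, SE 0.45, adjusted p = 0.00346). The checkpoint kinase Ttk had 2 and 0 counts in WT and 22 and 38 in CKO (adjusted p = 0.0188), and the spindle protein Ckap2 6 and 0 against 42 and 45 (adjusted p = 0.0166). None of 41 further replication genes was called in pDC (2 at an unadjusted p under 0.05, median 0.07), and of 26 E2F, DREAM and G1 regulators 2 rose. E2f2, an activating E2F, was at 0.962 and 1.27 CPM (WT) and at 5.71 and 2.46 CPM (CKO) in pDC (log2 fold change 1.86, SE 0.41, adjusted p = 0.0371). E2f7, an E2F repressor, had 1 and 0 counts in WT and 36 and 22 in CKO (adjusted p = 0.0167). The genes of FoxM1 and B-Myb, Foxm1 and Mybl2, are in the same list. In pDC Foxm1 had 984 and 928 counts in WT and 728 and 559 in CKO. Mybl2 had 38 and 23 against 43 and 45.

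In both Esam subsets most estimates of these lists were negative. In Esamhi 50 of the 51 further mitosis and 37 of the 41 further replication genes had negative estimates, with medians of -0.44 and -0.31 and no call (5 and 2 at an unadjusted p under 0.05). In Esamlo 49 and 33 were negative, with medians of -0.31 and -0.19 and no call (5 and 3 at an unadjusted p under 0.05). In Dec205, 1 of the 51 further mitosis and 2 of the 41 further replication genes were called, a smaller share than the 6.78% of all tested genes. Timeless, a protein of the replication fork, was at 13.4 and 19.7 CPM (WT) and at 43.1 and 53 CPM (CKO) (log2 fold change 1.54, SE 0.31, adjusted p = 0.0105), and Ect2, which starts the contraction that divides the cell, at 9.64 and 7.98 (WT) and 26.9 and 16.3 (CKO) CPM (log2 fold change 1.30, SE 0.26, adjusted p = 0.0107). Dbf4, the activating subunit of the kinase that fires origins, fell from 33 and 30.5 to 20.3 and 21.9 CPM (log2 fold change -0.59, SE 0.15, adjusted p = 0.0375).

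Within each group the promoter patterns were compared between called and other genes as a description. CHR stood in 10 of the 12 mitosis promoters of genes called in pDC and in 10 of the 14 of genes not called, and CCAAT in 11 of 12 and 9 of 14. Neither of the 2 called replication genes had a CHR match, and 2 of the 12 others did. The members lie on 17 chromosomes. Exons of 7 of them, Ccna2, Ube2c, Kif20a, Prc1, Mcm7, Gins2 and Ccne2, overlap another gene over more than 10% of their length, most of all Gins2, at 70.7% with Gse1, and their levels are uncertain for that reason.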

How the data were processed

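RNA of sorted spleen DCs was measured in 16 libraries, made with a SMART-seq v4 kit per the labels' protocols, without molecular identifiers or strand. The authors deposited raw counts per gene as whole numbers. The submitters' processing notes name bcl2fastq, Trimmomatic 0.36, Bowtie2 2.2.9 and mm10. The counting tool, its annotation and its handling of shared reads are not given in the sources at hand. An aligner that does not split reads, if used on the genome, would lose reads over exon junctions, so levels per length are approximate.

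Low counts were filtered with filterByExpr (8 groups), and counts were scaled by TMM and tested with edgeR 4.0.16 (R 4.3.3, limma 3.58.1; quasi-likelihood F test, robust, 1 coefficient per group, 8 residual degrees of freedom, two-sided). P-values were Benjamini-Hochberg adjusted over all 13790 tested genes, with calls at values under 0.05. The SE of a log2 fold change comes from the F statistic. CPM uses TMM-scaled library sizes. The fit was tested on simulated data before use. Replicate numbers were not used as pairs: replicate deviations of WT and CKO in the same subset correlated at -0.0692 to 0.0169. Contrasts between subsets treat the libraries of different subsets as independent. Intervals and the floor of 3 counts cover counting error only. Exon lengths are unions from GENCODE M21 (46 genes by Ensembl ID, 2 by symbol). Promoters are from RefSeq.

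The members and lists were chosen with earlier results of these data known. The text names members freely, gives every library of those called in a CKO comparison or the joint test, and otherwise keeps to the highest and lowest levels and the widest spreads between WT subsets; Mcm4, Mcm5, Pcna, Spc25 and other members were named beyond that, or for their values, after these were seen. Of other pathway genes at most 5 called genes per list and comparison are named. Foxm1 and Mybl2 are named besides, after their values were seen, since the background names their products. Alternatives were size factors by RLE, library size only, no filter, DESeq2 1.42.0, the replicate block over all libraries or within each genotype, each library left out and each subset alone.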

Additional observations from a re-analysis of the deposited data

Results flagged for a closer look

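For 13 members the joint test over the 4 subsets gave a CKO change that differs between subsets, at the following adjusted p-values (edgeR quasi-likelihood test, n = 2 per group). Among the mitosis genes these were 0.000176 for Stmn1, 0.00189 for Top2a, 0.00229 for Kif11, 0.00407 for Ube2c, 0.00646 for Kif23 and 0.00666 for Ccnb2. Further values were 0.00978 for Kif2c, 0.0139 for Cdk1, 0.0180 for Ccna2, 0.0376 for Cenpf and 0.0444 for Mki67. The replication genes gave 0.0176 for Rrm2 and 0.0254 for Cdc6. All 13 rose in pDC CKO, and no other subset had a called change in any of them. Groups of 2 libraries are too small for a check of single libraries against their group.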

How the results depend on the processing

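Every called member kept its direction under every alternative run. Of the 18 called values (17 in pDC, Mcm3 in Dec205), 18 kept their call with RLE size factors, library size only and DESeq2, and 16 without the filter on low counts, where Aurkb (adjusted p = 0.134) and Mki67 (0.0601) lost it. DESeq2 called more members: 23 mitosis genes in pDC, 1 in Esamhi and 21 in the joint test of the CKO change, and 1 replication gene in Esamlo, 2 in Esamhi and 4 in the joint test. Fits of 1 subset alone gave 2 mitosis and 0 replication genes in pDC, 0 replication genes in Dec205, and 12 and 9 in Esamhi. Their adjusted p was 0.0274 for Stmn1 and Top2a in pDC and up to 0.649 for the members that lost the call. The replicate block over all libraries gave 0 replication genes in Dec205, since Mcm3 moved to an adjusted p of 0.0552, and Cenpe in pDC moved to 0.0510 while Bub1b gained a call. The labels do not say that libraries of 1 number share an animal, but within a genotype the replicate deviations of different subsets correlated at 0.00719 to 0.116 (WT) and 0.0257 to 0.109 (CKO), and B cell markers were higher in CKO replicate 1 in all 4 subsets. A replicate block within each genotype, added after the data were seen, gave 17 mitosis and 2 replication genes in pDC, 0 replication genes in Dec205 (Mcm3 0.0602), 0 in both Esam subsets, 12 and 2 in the joint test of the CKO change and 31 and 17 in that of the WT subsets. Under both blocks Cenpf lost its call in the joint test of the CKO change. Of the members lower in Dec205 than in Esamhi WT, Cenpe lost its call under both, and no member was called between Esamlo and Esamhi WT.

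Leaving out each library in turn gave 11 to 16 called mitosis genes and 0 to 3 replication genes in pDC, 0 to 1 of each in Dec205, and 0 in both Esam subsets. The joint test of the CKO change then called 8 to 17 mitosis and 0 to 4 replication genes, the 0 without Esamhi CKO replicate 2 and the 17 without pDC WT replicate 2. Without pDC WT replicate 2, no replication gene was called in pDC. In these fits a lone library is assumed to vary like the other groups. The mitosis median ran from 1.34 to 1.66 in pDC, -0.02 to 0.43 in Dec205, -0.34 to -0.21 in Esamlo and -0.57 to -0.36 in Esamhi. The replication median ran from 0.13 to 0.34, -0.31 to 0.21, -0.33 to -0.21 and -0.53 to -0.43 in the same order. Causes were not tested. Depth limits the mitosis genes of pDC WT, with a median of 37 counts per gene and library, against 182.5 for the replication genes. In pDC WT, 7 mitosis and 2 replication genes had under 50 counts over both libraries.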
